A study of Mus musculus with 2 samples.

Results

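Axin2, Sp5, Nkd1, Rnf43 and Znrf3 are targets of Wnt signalling, and the products of 4 of them restrain the pathway that induces them. They are 5 of the 31053 genes listed for these libraries. They were chosen by symbol, with earlier results of these data known. Their unique molecular identifiers (UMIs, each standing for 1 captured RNA molecule) were followed across sets of distal and airway epithelial cells of the embryonic mouse lung.

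The study captured single epithelial cells that had been sorted from mouse lungs at embryonic day 15 and profiled them with the 10x Chromium 3′ kit, chemistry v2. One library came from embryos with the control genotype and 1 from embryos with knockouts of LEF/TCF transcription factors, titled Mutant QKO. The labels used here give no strain, no driver or timing of the deletion and no number of embryos per library. All levels below come from the control library, and the expression of the knockout library was not analysed here. With 1 library there was no replicate spread and no test. Every interval is at the 95% level and covers counting error only.

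In the canonical Wnt pathway a destruction complex marks β-catenin for degradation until a Wnt ligand binds a Frizzled receptor and its LRP co-receptor. β-catenin then enters the nucleus and works with LEF/TCF factors on target genes. Axin2 is a scaffold of the destruction complex and is widely read as a reporter of the pathway. Nkd1 binds Dishevelled and dampens the signal inside the cell. Rnf43 and Znrf3 are related transmembrane E3 ubiquitin ligases that remove Frizzled receptors from the surface, an action that R-spondins and their LGR receptors counter. Sp5 is a transcription factor of the Sp family that is induced by Wnt signalling in many tissues and acts on other Wnt targets. In the developing lung the distal tips hold Sox9-expressing progenitors, the stalks and airways hold Sox2-expressing cells, and alveolar type 1 and type 2 cells arise from the distal epithelium.

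After cells with fewer than 1000 genes or over 10% mitochondrial UMIs were removed, 3457 of 3568 barcodes remained, with a median of 12826 UMIs per cell. Sets were formed by marker UMIs in a fixed order, so that no cell was counted in more than 1 set. Cells with at least 1 Sox2 UMI formed the Sox2-positive set of 697 cells. Of the remaining cells, 882 had Ager but no Sftpa1 UMI (Ager-positive, Ager being an alveolar type 1 marker), 366 had Sftpa1 but no Ager UMI (Sftpa1-positive, a surfactant protein gene of alveolar type 2 cells) and 396 had both. Cells with none of these but with a Sox9 UMI numbered 648. Of these, 419 had a UMI of the proliferation genes Mki67 or Top2a and are called cycling, and 229 had none and are called non-cycling. The other 468 cells carried no gate marker. These names state which transcripts were seen, and they are not cell types.

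The gates left the sets unequal in depth. The median was 13050 UMIs in Sox9-positive cycling cells, 10434 in non-cycling cells, 13674 in Ager-positive, 13078 in Sftpa1-positive and 14055 in Sox2-positive cells. Sox9 was not limited to the set named for it: a Sox9 UMI was present in 67.1% of Ager-positive, 80.6% of Sftpa1-positive, 88.9% of the double-positive and 40.9% of Sox2-positive cells. Of Sox2-positive cells, 35.4% also carried an Ager UMI. As a check on droplets that caught more than 1 cell, cells with at least 4 Xist UMIs and a UMI of a Y-linked gene were counted. They made up 2.01% of Sox9-positive, 5.67% of Ager-positive, 3.55% of Sftpa1-positive, 12.4% of the double-positive and 17.4% of Sox2-positive cells. These counts were not thinned, so the shares also depend on the depth of each set. Droplets with cells of the same sex are not seen this way. No doublet caller was run. Of the 3457 cells, 29 had a barcode that is also listed for the knockout library, and without them the interval of each member's ratio, in the 5 comparisons below, lay on the same side of 1 or still held it.

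The summed level of 5 epithelial markers was between 1434 and 1889 CPM (UMIs of a gene for every 1000000 UMIs of the set) in the 5 named sets. The 6 mesenchymal markers summed to between 1.10 and 15.1 CPM there, with Tbx4 at 0 UMIs in all 5, and the 4 blood markers to between 0.685 and 2.0 CPM. A separate group of 39 cells, with at least 5 UMIs of mesenchymal genes, was kept as a comparison. It had 56.1 CPM of the epithelial markers and 1442 CPM of the mesenchymal ones, and 34 of these cells lay in the unmarked set. The 7 distal progenitor markers summed to 3326 CPM in Sox9-positive cycling, 2904 in non-cycling, 2963 in Ager-positive and 4053 in Sftpa1-positive cells, against 1445 CPM in Sox2-positive cells. The gate gene Sox9 is among these 7, at 217, 192, 123, 189 and 83.3 CPM in the same order of sets. The 8 airway markers reached 423.6 CPM in Sox2-positive cells and at most 31.5 CPM in the distal sets. Of these sums the gate gene Sox2 was 135 CPM in Sox2-positive cells and, by the gate, 0 in the distal sets. The 8 alveolar type 1 markers summed to 268 CPM in Ager-positive cells, of which the gate gene Ager itself was 129 CPM, and to 108 CPM in Sox9-positive cells. Aqp5 had 1 UMI in Ager-positive and 0 in Sox9-positive cells, and Pdpn was 44.9 CPM in Ager-positive, 45.6 CPM in Sox9-positive and 58.4 CPM in Sftpa1-positive cells.

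All 5 genes were detected at low levels, with 422 Axin2, 809 Sp5, 762 Nkd1, 698 Rnf43 and 1439 Znrf3 UMIs in the kept cells. A 3′ kit counts transcript ends, so these levels are not scaled by transcript length. In levels of a whole set, fewer cells with a transcript and less RNA per cell cannot be told apart. Most positive cells held 1 UMI of a member, and the highest count in a single cell of the distal sets was 6, for Znrf3. The levels in each set, with their intervals, are drawn in the plot of levels by cell set.

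**Figure D1:**
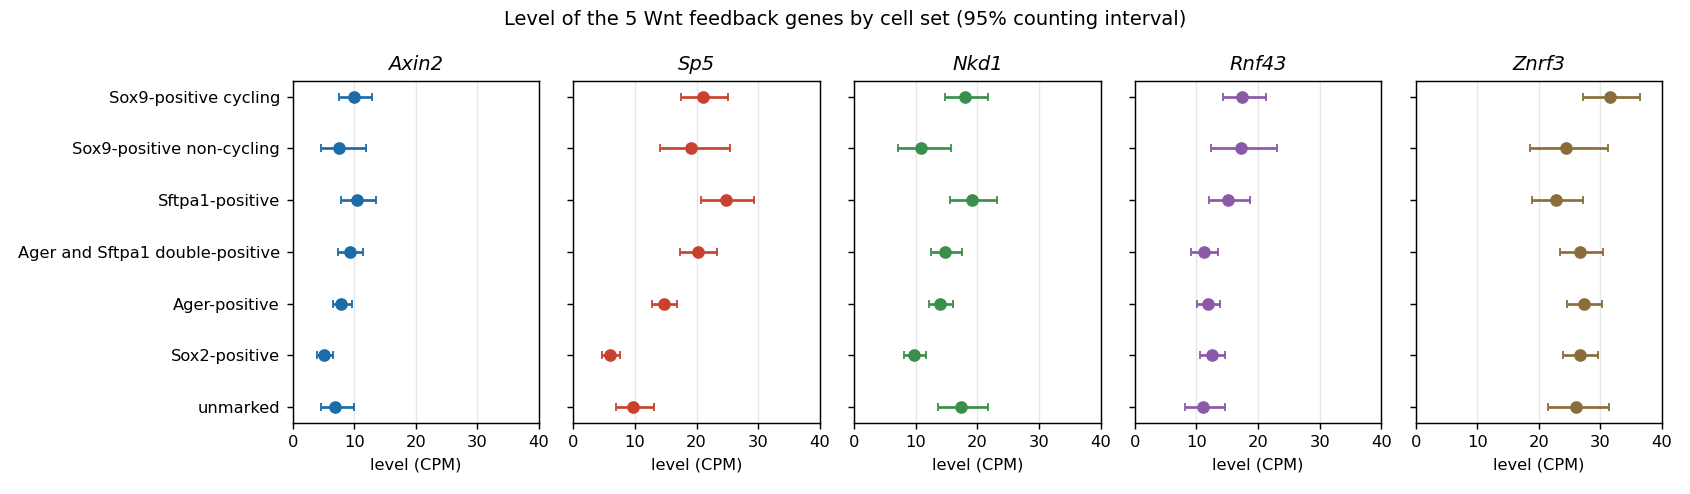
Level of each feedback gene in CPM (horizontal axis, linear) in 7 disjoint cell sets of the control library (vertical axis). Points are levels of the whole set and bars are exact Poisson 95% intervals. Sp5 ran from 5.99 CPM in Sox2-positive to 24.8 CPM in Sftpa1-positive cells, while Znrf3 stayed between 22.8 and 31.5 CPM.

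Sp5 (ENSMUSG00000075304, GRCm38 chr2:70474923-70477729, plus strand) had the widest range of the 5. Its level was 24.8 CPM (20.8 to 29.3, 135 UMIs) in Sftpa1-positive, 21.1 CPM (17.5 to 25.1, 123 UMIs) in Sox9-positive cycling and 19.2 CPM (14.1 to 25.4, 48 UMIs) in Sox9-positive non-cycling cells. It was 14.7 CPM (12.8 to 16.9, 204 UMIs) in Ager-positive and 5.99 CPM (4.72 to 7.50, 76 UMIs) in Sox2-positive cells. Sftpa1-positive cells were highest, Sox2-positive cells lowest, and among neighbours in this order the only step beyond counting error was from Ager-positive down to Sox2-positive cells, a ratio of 2.45 (1.88 to 3.24). The double-positive cells stood at 20.2 CPM, between the Ager-positive and Sftpa1-positive sets.

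Among the 4 members with a promoter window, Sp5 was the only one with motif matches just upstream of a start site taken from RefSeq. The 250 bases before the start were read from RefSeq for these members (build GRCm38.p6) and searched on both strands for CTTTGA and CTTTGT, 6-base cores of the sequence that LEF/TCF factors bind. These start sites need not be the gene starts printed here. The Nkd1 window (chr8:88527383-88527632) lay inside the gene bounds given below. So did the windows of Rnf43, which begin at bases 87662837 and 87699647 of chr11. These motifs do not overlap each other. The windows of Sp5 and Axin2 are shown because Sp5 alone held matches and Axin2 is the usual Wnt reporter. Matches stand in capitals on the strand shown, so that a match to CTTTGT on the other strand reads as its reverse complement.
Sp5, chr2:70474673-70474922, plus strand: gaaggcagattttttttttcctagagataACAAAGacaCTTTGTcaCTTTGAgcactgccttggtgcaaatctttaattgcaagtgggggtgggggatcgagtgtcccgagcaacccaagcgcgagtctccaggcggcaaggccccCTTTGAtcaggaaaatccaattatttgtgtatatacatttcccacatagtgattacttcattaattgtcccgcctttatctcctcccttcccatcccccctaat
Axin2, chr11:108920099-108920348, plus strand: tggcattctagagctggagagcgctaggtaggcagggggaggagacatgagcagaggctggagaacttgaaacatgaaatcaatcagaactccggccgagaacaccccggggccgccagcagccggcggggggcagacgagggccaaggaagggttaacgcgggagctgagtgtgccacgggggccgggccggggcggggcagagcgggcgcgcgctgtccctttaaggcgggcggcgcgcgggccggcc
The Sp5 window held 4 matches, whose first bases lay 221, 212, 204 and 104 bases before the start site. Of 32851 windows of the same length in the RefSeq table, 27.6% held at least 1 match and 0.0944% held at least 4. The windows of Axin2, Nkd1 and Rnf43 held 0 matches, which says only that these letters are not in these windows. A match is a description of the sequence and not evidence of binding.

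Axin2 (ENSMUSG00000000142, chr11:108920349-108950783, plus strand) was the least abundant member. It stood at 10.5 CPM (7.93 to 13.6, 57 UMIs) in Sftpa1-positive, 9.94 CPM (7.54 to 12.8, 58 UMIs) in Sox9-positive cycling and 7.93 CPM (6.52 to 9.56, 110 UMIs) in Ager-positive cells. Sox9-positive non-cycling cells had 7.59 CPM (4.57 to 11.8, 19 UMIs) and Sox2-positive cells 5.13 CPM (3.96 to 6.53, 65 UMIs). No neighbours in that order differed beyond counting error, but the top and bottom of it did, at a ratio of 2.04 (1.41 to 2.96). The top and bottom sets were picked by these same counts, and the interval does not cover that choice, here or for the members below. The antisense gene Gm11670 overlaps Axin2 in the GENCODE M21 annotation and had 0 UMIs in this library.

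Nkd1 (ENSMUSG00000031661, chr8:88521354-88594884, plus strand) followed the same order of sets as Axin2. It was 19.1 CPM (15.6 to 23.1, 104 UMIs) in Sftpa1-positive, 18.0 CPM (14.7 to 21.8, 105 UMIs) in Sox9-positive cycling and 13.99 CPM (12.1 to 16.1, 194 UMIs) in Ager-positive cells. The lowest levels were 10.8 CPM (7.11 to 15.7, 27 UMIs) in Sox9-positive non-cycling and 9.78 CPM (8.13 to 11.7, 124 UMIs) in Sox2-positive cells. Of neighbouring sets, only the cycling Sox9-positive cells stood above the next one, Ager-positive cells, with a ratio of 1.29 (1.004 to 1.64), close to its limit.

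Cells of another type held Nkd1 as well. In the 39 mesenchymal-marker cells it stood at 73.0 CPM (47.7 to 107, 26 UMIs), of which 1 cell carried 9. These cells also had 25.3 CPM of Axin2 (11.5 to 47.9, 9 UMIs), 1 Sp5 UMI and 0 Rnf43 UMIs. For Rnf43, 3 counts would be 8.42 CPM, and the exact interval reaches 10.4 CPM. In the unmarked set Nkd1 was 17.3 CPM with them and 12.4 CPM without them. The 5 named sets together held few such cells, at most 3 in any set.

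Rnf43 (ENSMUSG00000034177, chr11:87662722-87735539, plus strand) had its highest levels in the Sox9-positive cells, which lack Ager and Sftpa1 UMIs. Its level was 17.5 CPM (14.2 to 21.2, 102 UMIs) in cycling and 17.2 CPM (12.4 to 23.1, 43 UMIs) in non-cycling Sox9-positive cells. It was 15.1 CPM (12.0 to 18.7, 82 UMIs) in Sftpa1-positive, 12.5 CPM (10.6 to 14.6, 158 UMIs) in Sox2-positive and 11.9 CPM (10.2 to 13.9, 165 UMIs) in Ager-positive cells. Unlike the preceding genes it was lowest in Ager-positive cells over all depths, although no neighbouring sets differed. The top exceeded the bottom, sets picked by these same counts, by a ratio of 1.47 (1.14 to 1.89). The order depended on depth. In cells of at most 8000 UMIs Rnf43 was 7.41 CPM in Sox2-positive and 16.8 CPM in Ager-positive cells. It was 7.95 and 11.0 CPM from over 8000 to 14000 UMIs, and 13.9 and 12.0 CPM above 14000.

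Znrf3 (ENSMUSG00000041961, chr11:5276324-5444847, minus strand), the most abundant member, varied least. It was 31.5 CPM (27.1 to 36.4, 184 UMIs) in Sox9-positive cycling, 27.3 CPM (24.6 to 30.2, 379 UMIs) in Ager-positive and 26.7 CPM (23.9 to 29.6, 338 UMIs) in Sox2-positive cells. Sox9-positive non-cycling cells had 24.4 CPM (18.6 to 31.3, 61 UMIs) and Sftpa1-positive cells 22.8 CPM (18.9 to 27.1, 124 UMIs). Its order placed Sftpa1-positive cells, the top set for Sp5, Axin2 and Nkd1, at the bottom. No neighbours differed beyond counting error, and the top exceeded the bottom, sets picked by these same counts, by 1.38 (1.10 to 1.75).

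Paralogues of the members were compared as checks. Axin1, the constitutive counterpart of Axin2 in the destruction complex, was 6.83 CPM in Sox9-positive and 7.73 CPM in Sox2-positive cells, with an interval of the ratio that holds 1. Nkd2, Sp6, Sp8 and Sp9 had at most 5 UMIs in any set.

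The comparison of distal with airway-side cells gave the largest ratios for Sp5 and Axin2 among the 5 comparisons. In Sox9-positive against Sox2-positive cells Sp5 was 3.42 times as high (2.60 to 4.54), Axin2 1.80 times (1.28 to 2.55), Nkd1 1.62 times (1.26 to 2.08) and Rnf43 1.40 times (1.11 to 1.76). For Znrf3 the ratio was 1.10 (0.931 to 1.30), an interval that holds 1. The intervals of 4 of the 5 members thus lay above 1 and none lay below, where 10.8% of the 10461 genes with at least 50 UMIs over both sets lay above 1 and 35.5% below. By size, 3 members reached a ratio of 1.5, against 2.92% of all genes. The members' median log2 ratio was 0.69 and that of all genes was -0.19. As the members were chosen with earlier results of these data known, the shares over all genes only describe where the members lie.

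The members did not differ equally between the distal and airway-side cells, as 6 of the 10 pairs of members had odds ratios with intervals off 1. The ratio of Sp5 exceeded that of 99.9% of genes, that of Axin2 98.3% and that of Znrf3 83.7%. Set directly against each other, the odds of Sp5 to Znrf3 UMIs were 3.10 times as high in Sox9-positive as in Sox2-positive cells (2.24 to 4.32). Sp5 also exceeded Axin2, whose odds against Sp5 were 0.527 (0.336 to 0.826), Nkd1 (2.11, 1.44 to 3.10) and Rnf43 (2.45, 1.70 to 3.54). The ratios of Rnf43 and Znrf3, the 2 receptor ligases, were not separated beyond counting error (1.27, 0.948 to 1.69).

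**Figure D2:**
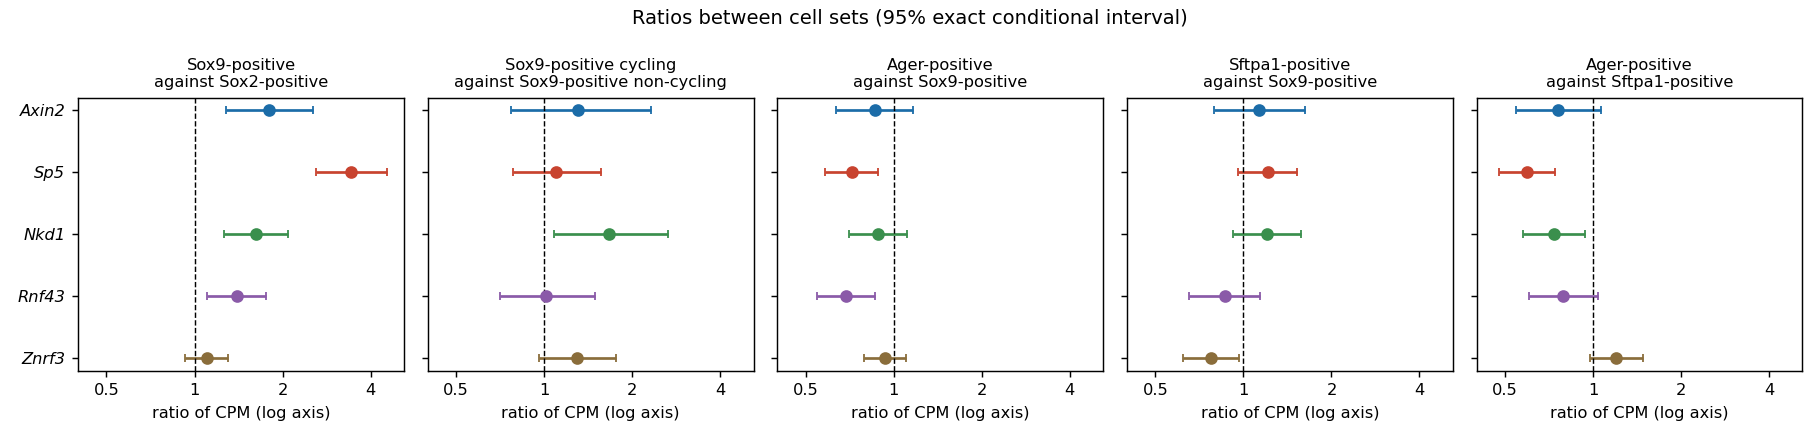
Ratio of CPM between 2 cell sets for each feedback gene (horizontal axis, log scale), in the 5 comparisons, with the dashed line at 1. Points are ratios and bars are exact conditional 95% intervals. Sp5 was at 3.42 in the comparison of Sox9-positive with Sox2-positive cells and at 0.594 in that of Ager-positive with Sftpa1-positive cells.

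Depth and mixed cells moved with this comparison. Cells above 14000 UMIs made up 50.1% of the Sox2-positive and 32.4% of the Sox9-positive set. In Sox9-positive cells Sp5 was 21.8, 18.6 and 22.3 CPM in cells of at most 8000, of over 8000 to 14000 and of more than 14000 UMIs. In Sox2-positive cells the 131 shallowest held 0 Sp5 UMIs, and the level was 1.77 and 7.49 CPM in the next bands. In the shallowest, 3 counts would be 3.71 CPM, and the exact interval reaches 4.56 CPM. Axin2 likewise had 0 UMIs in the shallow Sox2-positive cells, 2.21 CPM in the middle band and 6.24 CPM in the deep one.

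With both sets limited to at most 14000 UMIs the ratios were larger. Sp5 rested on 84 against 4 UMIs (19.0 CPM against 1.30 CPM), a ratio of 14.6 (5.48 to 54.7), and Axin2 on 41 against 5 UMIs, a ratio of 5.69 (2.25 to 18.4). Nkd1 was at 3.15 (1.78 to 5.92), Rnf43 at 2.43 (1.53 to 3.998) and Znrf3 at 1.43 (1.06 to 1.95), so that all 5 intervals lay above 1. Without the cells that held both Xist and Y-linked UMIs, the ratios were 3.98 for Sp5, 2.31 for Axin2, 1.98 for Nkd1, 1.42 for Rnf43 and 1.14 for Znrf3. The Rnf43 interval held 1 under 2 alternatives, at 1.14 (0.893 to 1.47) with at least 2 UMIs required of a marker and 1.22 (0.922 to 1.63) with gates at 5000 UMIs. That of Znrf3 lay above 1 under 4 of 11, all of which change the depth of the cells or of the gates. The intervals of Sp5, Axin2 and Nkd1 lay above 1 under all 11 alternatives that give one, although the ratio itself ranged from 2.88 to 24.6 for Sp5 and from 1.69 to 7.995 for Axin2. All 5 members had their lowest ratio with overlapping sets, where a cell counts in every set whose marker it holds and no interval was made. There Nkd1 was at 1.51, Rnf43 at 1.10 and Znrf3 at 1.03.

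**Figure D3:**
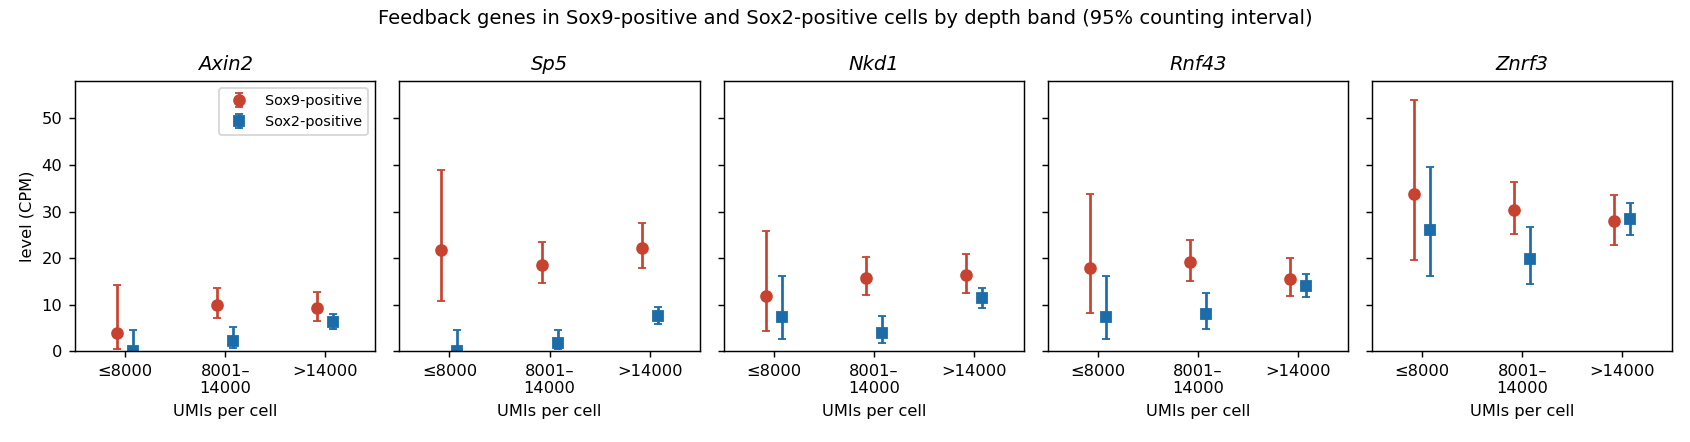
Level in CPM (vertical axis) of each feedback gene in Sox9-positive cells (circles) and Sox2-positive cells (squares), in 3 bands of UMIs per cell (horizontal axis). Bars are exact Poisson 95% intervals. In the middle band Sp5 was 18.6 CPM in Sox9-positive and 1.77 CPM in Sox2-positive cells, and Znrf3 30.3 and 19.9 CPM.

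The Sox2-positive cells themselves divided by Sox9. The 285 with a Sox9 UMI had a median of 24650 UMIs, and 35.8% of them held both Xist and Y-linked UMIs. The 412 without one had a median of 9824.5 UMIs and a share of 4.61%. Sp5 was 8.06 CPM in the former and 2.67 CPM (1.42 to 4.57, 13 UMIs) in the latter, Axin2 6.27 and 3.29 CPM, Nkd1 12.3 and 5.76 CPM and Rnf43 15.0 and 8.43 CPM. Znrf3 was 28.1 and 24.3 CPM, a smaller step than the others. Against the Sox2-positive cells without Sox9 UMIs, Sox9-positive cells had ratios of 7.67 for Sp5 (4.37 to 14.7), 2.81 for Axin2, 2.75 for Nkd1, 2.06 for Rnf43 and 1.21 for Znrf3 (0.968 to 1.52). The part of depth and of mixed droplets in these ratios was not tested.

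The make-up of the feedback genes' UMIs shifted with these sets. Sp5 made up 22.2% of the 770 UMIs of the 5 genes in Sox9-positive cells (19.3 to 25.3), 26.9% of 502 in Sftpa1-positive (23.1 to 31.0), 19.4% of 1052 in Ager-positive (17.0 to 21.9) and 9.99% of 761 in Sox2-positive cells (7.95 to 12.3). Znrf3 made up 31.8% in Sox9-positive, 24.7% in Sftpa1-positive, 36.0% in Ager-positive and 44.4% in Sox2-positive cells. In Sox2-positive cells without Sox9 UMIs Sp5 made up 6.02% and Znrf3 54.6%, with exact binomial intervals of 3.24 to 10.1% and 47.7 to 61.4%. Nkd1 held 59.1% of the 44 member UMIs in mesenchymal-marker cells, against 12.96 to 20.7% in the epithelial sets drawn in the plot of the make-up.

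**Figure D4:**
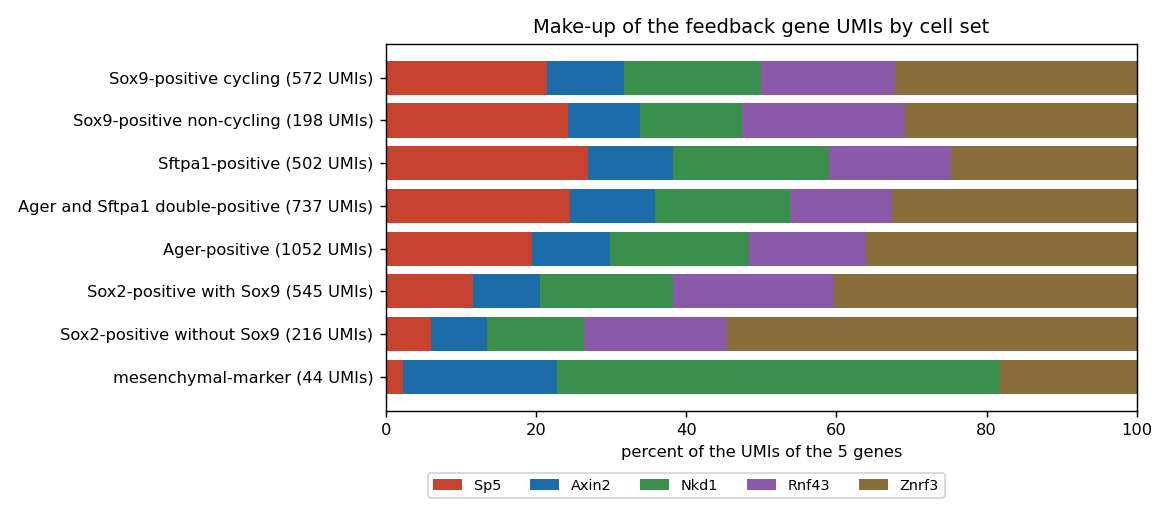
Share of each gene (coloured segments) in the summed UMIs of the 5 feedback genes (horizontal axis, percent), in 8 cell sets named on the vertical axis with their UMIs. Sp5 held 26.9% in Sftpa1-positive cells and 6.02% in Sox2-positive cells without Sox9 UMIs, while Znrf3 went from 24.7% to 54.6%.

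Within Sox9-positive cells, 1 of the 5 members had an interval off 1 between cells with and without proliferation transcripts. Nkd1 was 1.67 times as high in cycling as in non-cycling cells (1.08 to 2.65, 105 against 27 UMIs). Axin2 was at 1.31 (0.768 to 2.33), Znrf3 at 1.29 (0.964 to 1.76), Sp5 at 1.10 (0.781 to 1.57) and Rnf43 at 1.02 (0.706 to 1.49), all with intervals that hold 1. Nkd1 was not separated from the other members. The odds ratios of all pairs had intervals that hold 1, with Nkd1 to Rnf43 at 1.64 (0.912 to 2.98). The 1 member above 1 and 0 below stand against 11.6% and 7.64% of 8110 genes, and 1 member against 8.37% of genes reached a ratio of 1.5. The median log2 ratio was 0.37 for the members and 0.05 for all genes.

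The Nkd1 difference depended on the gate. Non-cycling cells were shallower, and when the marker gates were applied after thinning each cell to 5000 UMIs, Nkd1 was at 0.897 (0.672 to 1.20), on the other side of 1. It was at 1.06 (0.743 to 1.54) with at least 2 UMIs required of a marker and at 1.62 (0.95 to 2.85) in cells of up to 14000 UMIs. When the Sox9-positive cells were binned by their thinned Mki67 and Top2a UMIs, Nkd1 in cells with 3 or more was 1.10 times its level in cells with none (0.605 to 1.90). Znrf3 was 22.5, 31.3, 48.9 and 34.7 CPM at 0, 1, 2 and 3 or more UMIs, with a ratio of 1.54 (1.02 to 2.30) between the last and the first. Between the sets it was at 1.27 (1.03 to 1.57) with gates at 5000 UMIs. The level of 22 cell cycle genes was 2113 CPM in the cycling and 1273 CPM in the non-cycling set, so the non-cycling cells were not free of proliferation transcripts.

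Cells with the alveolar type 1 transcript Ager had less of 2 members than Sox9-positive cells, which lack Ager and Sftpa1 UMIs by the gate but not other alveolar transcripts. Rnf43 was 0.684 times as high (0.544 to 0.862) and Sp5 0.718 times (0.583 to 0.885). Axin2 at 0.859 (0.636 to 1.17), Nkd1 at 0.884 (0.705 to 1.11) and Znrf3 at 0.931 (0.790 to 1.10) had intervals that hold 1. All 5 ratios were below 1, with 0 intervals above it, in a comparison in which 20% of 10289 genes had intervals above 1 and 7.17% below. No member reached a ratio of 1/1.5, as 1.64% of genes did. The members' median log2 ratio was -0.22 and that of all genes 0.08. With UMI totals that leave out mitochondrial, ribosomal protein and haemoglobin genes, the share of genes above 1 among those on either side moved from 73.6% to 54.9%. Both differences were lost under 1 alternative each, Rnf43 at 0.908 (0.728 to 1.13) with at least 2 UMIs of a marker and Sp5 at 0.818 (0.660 to 1.01) with gates at 5000 UMIs.

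Cells with the alveolar type 2 transcript Sftpa1 had 1 member whose interval excluded 1 against Sox9-positive cells. Znrf3 was 0.775 times as high (0.619 to 0.966). Sp5 and Nkd1 were both at 1.21 (0.958 to 1.52 and 0.924 to 1.57), Axin2 at 1.13 (0.790 to 1.62) and Rnf43 at 0.866 (0.652 to 1.14). The 1 member below 1 and 0 above stand against 5.12% and 10.7% of 9281 genes, and no member reached 1/1.5, as 2.23% of genes did. The members' median log2 ratio was 0.18 and that of all genes 0.03. The Znrf3 interval held 1 under 4 of 9 alternatives, all on depth or mixed cells: 0.831 (0.680 to 1.01) with gates at 5000 UMIs, 0.740 (0.523 to 1.03) up to 14000 UMIs, 0.751 (0.530 to 1.05) from 6000 to 14000 UMIs and 0.804 (0.638 to 1.01) without Xist and Y-linked cells. Under the first 3 of these the Sp5 interval lay above 1, at 1.33 (1.07 to 1.66), 1.64 (1.17 to 2.29) and 1.61 (1.15 to 2.25). Rnf43 was at 0.596 (0.417 to 0.834) with at least 2 UMIs required of a marker. The odds of Sp5 to Znrf3 UMIs were 1.56 times as high in Sftpa1-positive as in Sox9-positive cells (1.13 to 2.16). With the same change of UMI totals as above, the share of genes above 1 among those on either side moved from 67.7% to 49.5%.

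The alveolar-marker sets differed from each other in Sp5 and Nkd1. Its level in Ager-positive cells was 0.594 times that in Sftpa1-positive cells (0.475 to 0.743), and Nkd1 stood at 0.733 (0.574 to 0.939). Axin2 at 0.758 (0.546 to 1.06), Rnf43 at 0.790 (0.603 to 1.04) and Znrf3 at 1.20 (0.978 to 1.48) had intervals that hold 1. The 2 members below 1 and 0 above compare with 8.09% and 13.6% of 10044 genes, and 1 member (Sp5) passed 1/1.5, against 2.44% of genes. The median log2 ratio was -0.40 for the members and 0.05 for all genes. The odds of Sp5 to Znrf3 UMIs were 0.495 times as high in Ager-positive cells (0.363 to 0.673). With deep cells left out (over 14000 UMIs) the Sp5 ratio was 0.369 (0.254 to 0.536), and with at least 2 UMIs required of a marker that of Nkd1 was 0.843 (0.649 to 1.10). Under the latter choice Rnf43 turned direction, to 1.52 (1.08 to 2.19), and Znrf3 was at 1.29 (1.03 to 1.61).

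The gates for Ager and Sftpa1 leave cells with both transcripts, and these lay between the sets for each member but Rnf43. The 396 double-positive cells were the deepest, with a median of 18971 UMIs. They had 9.25 CPM of Axin2, 14.8 CPM of Nkd1, 11.1 CPM of Rnf43 and 26.8 CPM of Znrf3. Rnf43 there was close to the 11.9 CPM of Ager-positive cells.

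Binning cells by the number of marker UMIs at equal depth gave a graded view. Among cells without Sox2 UMIs, each thinned to 5000 UMIs to set the bin, Sp5 was 15.7, 18.5, 22.5 and 25.9 CPM at 0, 1, 2 and 3 or more Sox9 UMIs. The last of these bins exceeded the first by 1.64 (1.25 to 2.13). Znrf3 did so by 1.28 (1.01 to 1.60), whereas Axin2 was at 1.01 (0.627 to 1.57) and Rnf43 at 0.952 (0.643 to 1.37). Nkd1 went the other way, at 0.671 (0.443 to 0.981), and at 0.714 (0.470 to 1.04) once the mesenchymal-marker cells, which have no Sox9 gate, were left out. The bins of 0 UMIs, by Sox9 here and by Ager or Sftpa1 below, also took in unmarked cells. In the unmarked set Sp5 was 9.70 CPM, the 8 airway markers summed to 179 CPM and the 4 blood markers to 202 CPM. Each sum was mostly 1 gene, with Scgb3a2 at 157 CPM and Pf4 at 201 CPM. Of the other blood markers, Ptprc and Hbb-bt had 0 UMIs and Hba-a1 had 3. The part of the unmarked cells in the steps between bins was not tested.

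Binned in the same way by Ager or by Sftpa1, with 42 and 29 cells at 3 or more UMIs, all 5 members had intervals that hold 1 between these cells and those with none. The fuller bins of Sftpa1 did separate for Sp5, which was 16.9 CPM (15.5 to 18.3) at 0 UMIs and 23.6 CPM (19.4 to 28.3, 112 UMIs) at 1. It was 24.5 and 24.6 CPM at 2 and at 3 or more. Sp5 differed along Sox9 inside the Ager-positive set too. There the 39 cells with 3 or more thinned Sox9 UMIs had 2.06 times the Sp5 level of the 518 cells with none (1.18 to 3.42). Along Sox2, over all kept cells, Sp5 was 16.6 CPM at 0 and 3.34, 3.46 and 4.46 CPM at 1, 2 and 3 or more UMIs, the last bin resting on 2 Sp5 UMIs (ratio to the first 0.269, 0.0325 to 0.975). Of 670 thinned Sox2-positive cells, 380 kept a Sox2 UMI, so the bin of 0 also held Sox2-positive cells, besides unmarked ones. Axin2 was 8.40, 4.53 and 2.59 CPM at 0, 1 and 2 UMIs. The 44 cells of the last bin held 0 Axin2 UMIs. There 3 counts would be 6.69 CPM, and the exact interval reaches 8.22 CPM. Znrf3 in cells with 3 or more Sox2 UMIs was 1.31 times its level in cells with none (0.747 to 2.14).

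**Figure D5:**
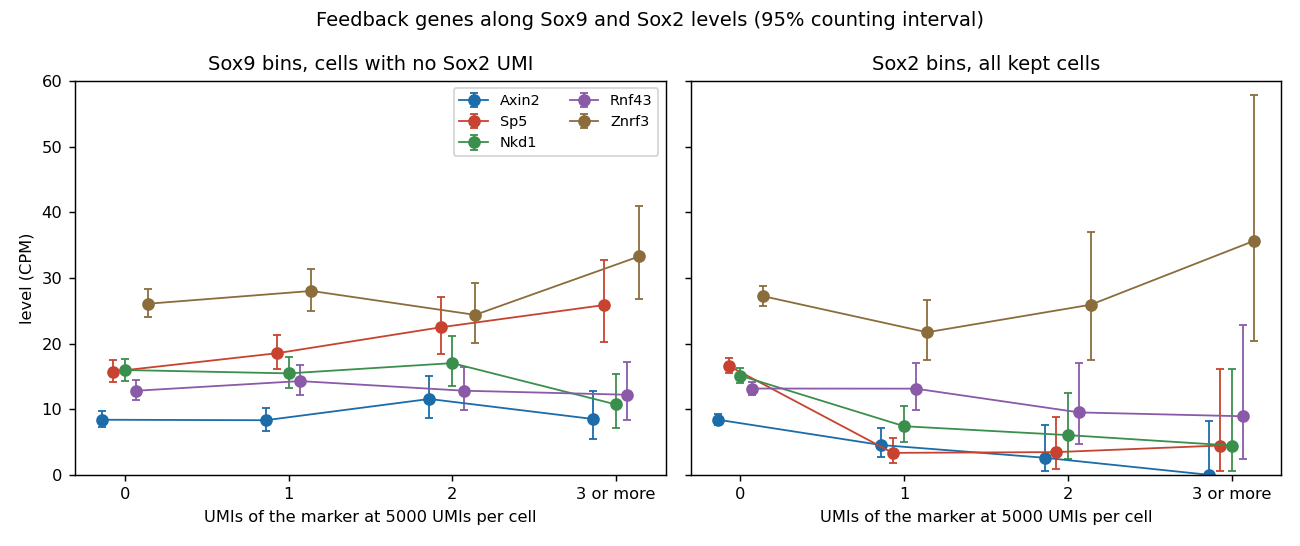
Level in CPM (vertical axis) of the 5 feedback genes in cells binned by UMIs of Sox9 (left, cells with no Sox2 UMI) and of Sox2 (right, all kept cells), with the bins set at 5000 UMIs per cell. Bars are exact Poisson 95% intervals, and lines join the bins of 1 gene. Sp5 went from 15.7 to 25.9 CPM along Sox9 and from 16.6 to 4.46 CPM along Sox2.

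Detection in single cells was sparse. With each cell thinned to 5000 UMIs, 5.16% of 640 Sox9-positive cells had an Axin2 UMI, 9.69% an Sp5, 5.94% an Nkd1, 7.66% an Rnf43 and 13.4% a Znrf3 UMI. At full depth the shares were 11.1, 21.6, 17.7, 19.9 and 28.1%. Of 670 Sox2-positive cells at 5000 UMIs, 1.94% had Axin2, 1.94% Sp5, 3.13% Nkd1, 5.07% Rnf43 and 11.9% Znrf3. Of 35 mesenchymal-marker cells at that depth, 1 (2.86%) had an Sp5 and 0 an Rnf43 UMI. For Rnf43, 3 cells would be 8.57%, and the exact interval reaches 10.0%. Znrf3 was seen most often in both epithelial sets.

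The 5 genes were seen together about as often as their separate shares give. At 5000 UMIs, 32.6% of the 2265 cells of all distal sets held a UMI of at least 1 member, and the product of the separate shares gives 33.3%. At least 2 members were seen in 5.65% (4.74 to 6.68), where the product gives 4.99%. At least 3 were seen in 9 cells, 0.397%. For each of the 10 pairs the product of the shares lay inside the counting interval of the observed share. Sp5 and Znrf3 were seen together in 25 cells, where the product gives 25.8.

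Genes with the most similar pattern were sought by the distance between profiles of log2(CPM + 1) over 6 sets, the 5 named sets and the double-positive cells. Each profile was centred on its mean, and 9264 genes with at least 200 UMIs were compared. Nearest to Axin2 were Pla2g12a (root mean square distance 0.0671), Srm (0.0680) and Gar1 (0.0690). Nearest to Sp5 were Lin7a (0.109), Col9a1 (0.115) and Gng2 (0.124), so no gene lay as near to Sp5 as these lay to Axin2. Nearest to Nkd1 were Hist1h2bj (0.0941), 2810429I04Rik (0.0969) and Myo18a (0.102). For Rnf43 they were Sept1 (0.0452), Zfp248 (0.0902) and Snhg9 (0.0930), and for Znrf3 Senp1 (0.0352), Ints7 (0.0402) and Nhlrc2 (0.0490). Within the family, Axin2 and Nkd1 were nearest to each other (0.130), with 49 genes nearer to Axin2 than Nkd1 was, and Sp5 and Znrf3 were farthest apart (0.656). All points share 1 library and these distances are descriptions.

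Other genes of the pathway are given from lists by role. Some genes stand in more than 1 list, among them Tcf7, Lef1 and Lgr5, and are counted in each. Of 18 other Wnt targets, 12 could be compared between Sox9-positive and Sox2-positive cells, 3 with intervals above 1 and 6 below. Tcf7 stood at 2.67 (1.76 to 4.11) and the transcription factor Ascl2 at 2.41 (1.41 to 4.195), while the receptor gene Tnfrsf19 was at 0.277 (0.239 to 0.321) and Prox1 at 0.107 (0.0503 to 0.203). The list therefore went in both directions, where 4 of the 5 feedback genes were above 1.

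Among 4 ligands compared, Wnt7b, a Wnt ligand of the lung epithelium, was at 2.54 (2.31 to 2.79), and Wnt4 (0.154) and Wnt5a (0.183) were lower in Sox9-positive cells. The shares over all genes to read these lists against are the 10.8% above and 35.5% below given before. Of 13 receptors, 3 were above 1, among them Ror2 (2.35, 1.49 to 3.76) and Ror1 (1.85), and 5 below, among them Fzd5 (0.426) and Fzd1 (0.657). Both genes compared of the R-spondins and LGRs, which act against Rnf43 and Znrf3, were below 1, Rspo1 at 0.285 (0.209 to 0.382) and Lgr5 at 0.389 (0.232 to 0.627). Of 15 destruction complex and Dishevelled genes, 7 were below 1 and 0 above, with Btrc at 0.632 and Amer1 at 0.631. Among the 4 LEF/TCF factors, Tcf7l1 was at 0.711 (0.575 to 0.874), opposite to Tcf7. Against 35.5% of all genes below 1, the destruction complex share was 7 of 15.

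Within distal cells fewer of the listed genes could be compared, and 11.6% of all genes lay above 1 and 7.64% below in cycling against non-cycling cells. Between cycling and non-cycling Sox9-positive cells, 2 of 10 receptors lay above 1, Fzd7 (1.90, 1.23 to 3.03) and Fzd2 (1.28, 1.01 to 1.63), and Rspo1 lay at 0.536 (0.303 to 0.958). Of 14 destruction complex and Dishevelled genes, Apc (1.40) and Gsk3b (1.25) were above 1 and Csnk1d (0.807) below. Of 5 other targets, Sox4 was at 0.870 (0.805 to 0.942). None of 3 LEF/TCF factors had an interval off 1.

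Between Ager-positive and Sftpa1-positive cells, 1 of 3 ligands was above 1 and 2 below, and 1 of 11 receptors above and 2 below, where 13.6% of all genes lay above and 8.09% below. Wnt7b was at 0.678 (0.623 to 0.740), Fzd7, a Wnt receptor, at 0.542 (0.429 to 0.688) and Ror2 at 0.630 (0.425 to 0.945), all lower in Ager-positive cells as Sp5 and Nkd1 were. Rspo1 was at 3.73 (2.15 to 7.01, 133 against 14 UMIs) and Wnt11 at 7.59 (2.47 to 37.9, 58 against 3 UMIs). Tcf7l1 (0.769, 0.596 to 0.998) and Tcf7l2 (0.767, 0.606 to 0.977) were 2 of 4 LEF/TCF factors below 1. Of 11 other targets, Tnfrsf19 (1.51, 1.23 to 1.86) and Sox4 (1.35) were 2 of the 3 above 1, and Bambi (0.745, 0.653 to 0.851) was the 1 below.

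Against Sox9-positive cells, Wnt7b was at 0.746 (0.690 to 0.806) in Ager-positive and at 1.10 (1.004 to 1.20) in Sftpa1-positive cells. Fzd7 was at 0.742 and 1.37, and Rspo1 at 1.48 (1.07 to 2.07) and 0.397 (0.204 to 0.725). Ascl2 was at 0.617 (0.385 to 0.992) in Ager-positive cells. Both comparisons use the same Sox9-positive cells. Of LEF/TCF factors, 0 of 4 and 0 of 3 had intervals off 1.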

How the data were processed

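Single-cell RNA counts of epithelial cells sorted from lungs at embryonic day 15 were analysed for 1 control library. Per the labels' protocols the libraries were made with the 10x Chromium 3′ kit, v2. The matrix the authors deposited holds whole-number UMI counts that were not normalized, and its header gives software version 3.0.1. The submitters' processing notes name Cell Ranger, Seurat and the build mm10, with no role given for each. How cells were told from empty droplets is not given in the sources used here. Only the lists of barcodes and genes of the knockout library were used.

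Cells with at least 1000 genes and at most 10% mitochondrial UMIs were kept (53639813 UMIs, between 2013 and 112424 per cell). The UMIs of a set's cells were added up and scaled to CPM with exact Poisson intervals. Ratios carry exact conditional (Clopper-Pearson) intervals and shares exact binomial ones, all at 95%, and a count of 0 is given with a limit of 3 counts. These intervals cover counting error only, since cells of 1 library are not replicates, and no test was made. Shares of cells and marker bins use cells thinned to 5000 UMIs (seed 0), leaving out shallower cells. A gene was compared when it had at least 50 UMIs over both sets, and was called by its interval or by a ratio of 1.5. Doublets were not removed. Named genes of a pathway list were at most the 2 highest and 2 lowest ratios whose interval excludes 1, and, for each member, the 3 genes nearest in pattern. Some of the genes the rule allows are not printed, and markers were used as checks. The members, sets and lists were chosen with earlier results of these data known. Genes were placed on GRCm38 by identifier with GENCODE M21, in which 31011 of the 31053 identifiers occur. Alternatives changed the cell filter, the marker minimum, the overlap of sets, the depth of gating and of cells, the Sox2-positive and cycling rules, mixed cells, the UMI totals, the mean over cells and the call thresholds. The intervals of the ratios were tried on counts simulated from the Poisson model that they assume. Those counts held no spread between cells or libraries, so the trial cannot show how the intervals hold for real cells. Python 3.11.15, numpy 2.4.6, scipy 1.17.1 and matplotlib 3.10.9 were used.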

Additional observations from a re-analysis of the deposited data

How the results depend on the processing

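No paired analysis was possible because there was 1 library per genotype and only the control was analysed. The median log2 ratio of the 5 genes between Sox9-positive and Sox2-positive cells was 0.69. No interval was made for a median, so the counting interval of the member at the median, here Nkd1, was used. The median moved beyond that interval under 5 of the alternatives. It was 1.15 with gates at 5000 UMIs per cell, 1.65 in cells of at most 14000 UMIs, 1.76 in cells of 6000 to 14000 UMIs and 1.46 with Sox2-positive cells that held 0 Sox9 UMIs. It was 1.61 with the last choice and at most 14000 UMIs together, an alternative chosen after seeing the data, as were leaving out the shared barcodes or the mesenchymal-marker cells and the bins by Sox2, by proliferation genes and by Sox9 within Ager-positive cells. The other 53 alternative medians, over the 5 comparisons, stayed inside the interval of the member at the median of their own comparison. Of the members' ratios, 252 alternatives stayed inside the counting interval, 37 moved outside it, and 1 whose interval had excluded 1 changed direction, Nkd1 in cycling against non-cycling cells, at 0.897 with gates at 5000 UMIs. Ratios whose interval held 1 also crossed it under some alternative: Rnf43 and Sp5 in cycling cells, Rnf43 in Ager-positive against Sftpa1-positive, Znrf3 in Ager-positive against Sox9-positive and Axin2 in Sftpa1-positive against Sox9-positive cells. The causes were not tested. Alternatives that cannot change a comparison were left out of these counts.

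The share of distal cells with at least 2 members was 5.65% at 5000 UMIs per cell, 2.58% at 3000, 12.4% at 8000 and 29.0% without thinning. The share of all genes past a ratio of 1.5 depended on the minimum count and the ratio. With at least 10, with at least 200 UMIs and with a ratio of 2, it was 5.37, 2.03 and 1.18% for Sox9-positive against Sox2-positive cells, 13.2, 3.43 and 2.26% for cycling against non-cycling, 4.64, 0.568 and 0.282% for Ager-positive against Sox9-positive, 7.004, 0.294 and 0.312% for Sftpa1-positive against Sox9-positive and 5.13, 1.06 and 0.597% for Ager-positive against Sftpa1-positive cells. At these depths a member seen in few UMIs, such as Axin2 with 19 in non-cycling cells, allows only wide intervals.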
